A study of Mus with 6 samples.

Results

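The factors described here are regulators of the haematopoietic stem cell state: Tal1, Lmo2, Gata2, Runx1, Erg, Fli1, Meis1, Hoxa7, Hoxa9 and Msi2. They were taken as every probe whose platform annotation symbol was 1 of these 10 gene names, which gave 10 of the 19057 named genes and 21 of the 45281 probes on the array. RNA was measured on 1-colour Illumina mouse bead arrays in leukaemic cells of mice with chronic myeloid leukaemia (CML), with 3 WT (wild-type) arrays and 3 arrays of Klf4-deficient mice. In both groups the disease was induced with the p210 form of BCR-ABL, the fusion kinase of CML, and cells were taken 14 days after bone marrow transplantation of C57BL/6 material. The sort kept GFP-positive, and so BCR-ABL-positive, cells that lacked lineage markers and carried Sca-1 and c-Kit (LSK), the surface phenotype of stem and early progenitor cells. How the Klf4 allele was deleted, and the sex, age and pooling of the mice, is not given in the sources used here. This comparison asks which transcripts of the leukaemic stem cell fraction differ without Klf4, a zinc finger transcription factor.

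TAL1, LMO2, GATA2, RUNX1, ERG and FLI1, together with LYL1, form the "heptad" of factors that occupy shared enhancers in blood stem and progenitor cells. TAL1 is a basic helix-loop-helix protein that binds E-boxes with an E protein, LMO2 is a LIM-domain adaptor that bridges it to GATA factors, GATA2 is a zinc finger protein, RUNX1 binds DNA with its partner CBFB, and ERG and FLI1 are ETS factors. HOXA7 and HOXA9 are homeodomain proteins encoded near each other in the Hoxa cluster, and MEIS1 is the TALE homeodomain cofactor with which HOXA9 drives self-renewal and, when overexpressed, leukaemia. MSI2 is not a DNA-binding factor but the RNA-binding protein Musashi-2, which acts on translation, represses Numb and rises in CML as it advances to blast crisis.

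A value is the deposited probe intensity, on a linear scale with background already subtracted. Intensities below 32 were treated as background: they were set to 32, called the floor here, before taking log2. A probe was tested when it exceeded 32 on at least 1 array, and a difference is the mean log2 value of the Klf4-deficient arrays minus that of the WT arrays. Of the 21 probes, 16 were tested, which left Erg with no tested probe and each of the other 9 genes with at least 1. Only 45 of the 126 member values exceeded the floor. Levels of different probes cannot be compared, since probes differ in how strongly they hybridise. Nothing in the labels ties the 3 samples of a group to separate mice; p-values therefore cover the spread between these samples only, and that spread may be technical. Cells were measured in bulk, so fewer cells of a type and less RNA per cell cannot be told apart.

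WT replicate 3 stood apart from the other 5 arrays. Across the 18270 tested probes, which are not independent replicates, it correlated with them at Pearson r = 0.287 to 0.299, while they correlated with each other at 0.662 to 0.725. Of the 1332 probes above 100 on all the other arrays, WT replicate 3 was at or below 32 for 590, or 44.3%. For the other arrays that share was 0.442% to 1.44%. The plot of differences shows every tested member probe without it as well, and the text does so for probes and list medians where its removal turned a sign or moved a value by over 1.5 times. Klf4 itself was above the floor in 1 of 18 values, from 3 probes on 6 arrays, so the arrays gave no check of the genotype labels. Kit, which encodes the c-Kit of the sort gate, exceeded the floor on 4 of the 6 arrays on any of its probes, and stayed below it in WT replicate 1 and Klf4-deficient replicate 2. Of 16 probes of mast cell and basophil genes other than Gata2, 7 to 12 were above the floor on the WT arrays, with the 7 in WT replicate 3. On the Klf4-deficient arrays it was 11 to 14. Cpa3, a mast cell protease, was above the floor on all 6 arrays on its 3 probes.

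**Figure D1:**
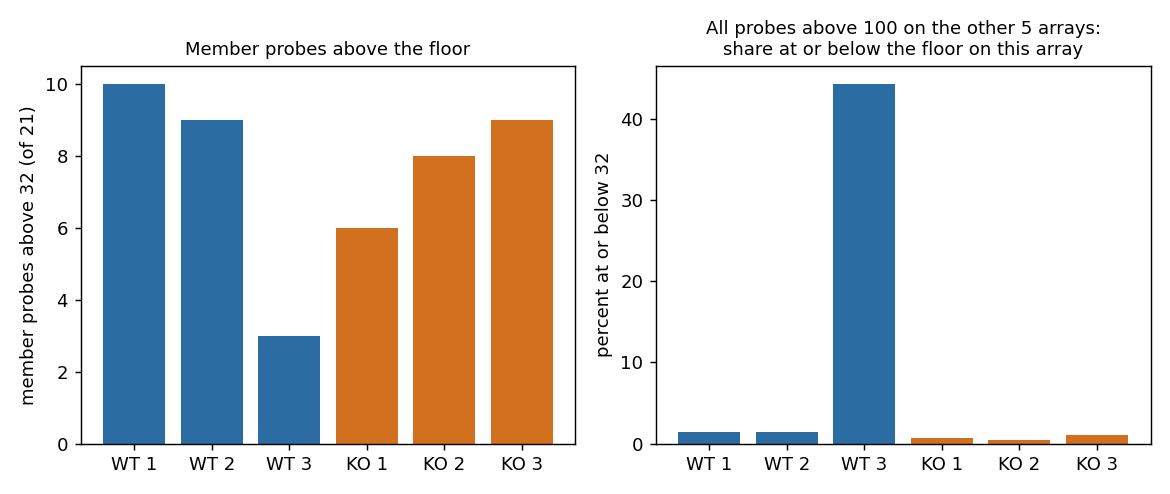
Left, the number of the 21 member probes above an intensity of 32 on each array (y axis, count). Right, for the probes above 100 on all 5 other arrays, the percent at or below 32 on the array named (y axis). Blue bars are WT and orange bars Klf4-deficient (KO) arrays. WT 3 holds 3 member probes above the floor against 6 to 10 on the other arrays, and 44.3% on the right against at most 1.44%.

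Lmo2, Gata2, Hoxa7 and 1 Msi2 probe were the members with the most measurements, each above the floor on at least 5 arrays, and no member probe passed the test between Klf4-deficient and WT arrays. Of the 16 tested member probes, 0 passed limma's test at an adjusted p below 0.05, and so did 0% of all 18270 tested probes. At an unadjusted p under 0.05 there were 0 member probes, against 2.03% of all tested probes (371). The 2 groups overlapped on each of the 16 member probes, and failed to overlap on 3.09% of all tested probes (564). The difference was positive for 10 member probes and negative for 6, with a median of 0.23 (log2) beside -0.05 over all tested probes. Without WT replicate 3 the split turned to 6 positive and 10 negative, and the median to -0.14 beside 0 over all tested probes. Dropping Klf4-deficient replicate 3 instead gave a median of -0.04, so its sign depended on single arrays. Of the 16 probes, 7 exceeded the floor on a single array, which fixes their sign, so these counts describe the probes and support no direction. Across all probes, leaving out WT replicate 3 gave 18 called, 1 higher and 17 lower in Klf4-deficient arrays, of which 15 had 1 group wholly at the floor and 0 were member probes.

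**Figure D2:**
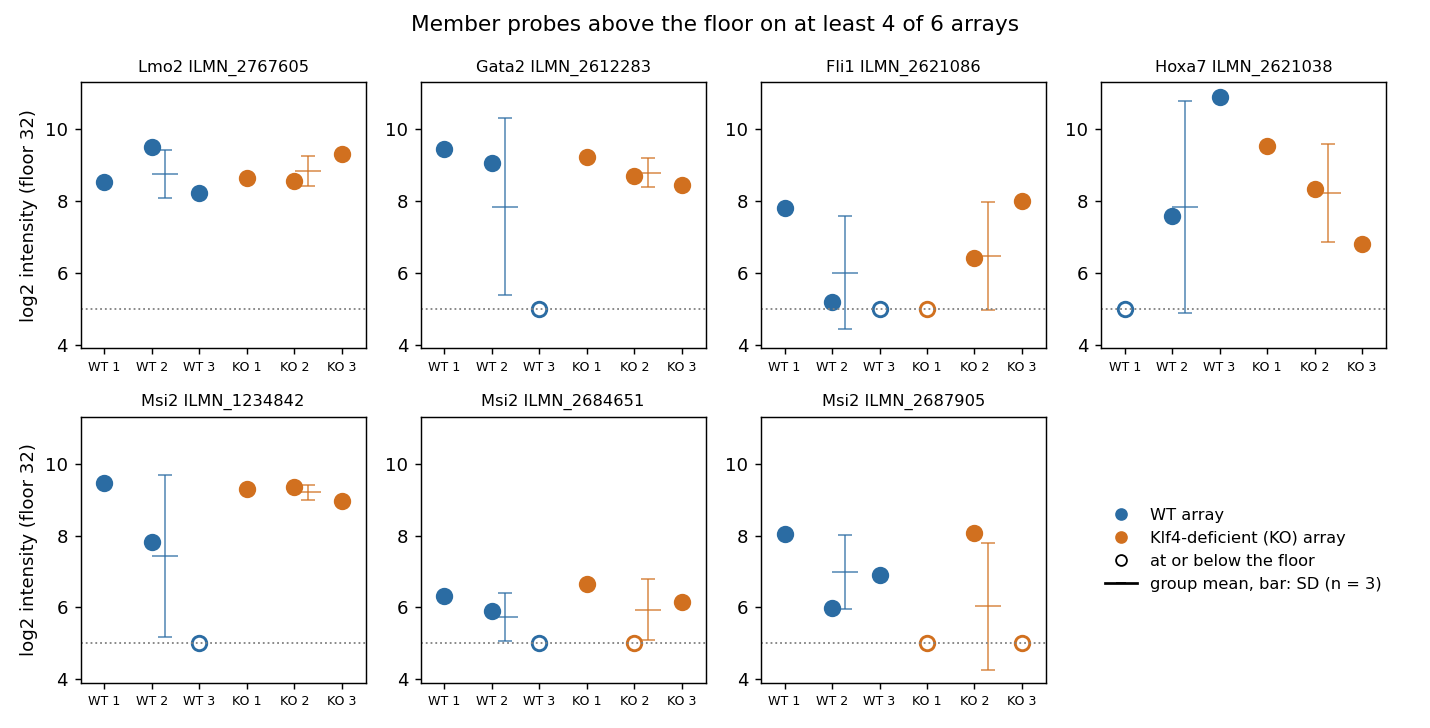
Log2 intensity with a floor of 32 (y axis, dotted line) on each array (x axis) for the 7 member probes above the floor on at least 4 arrays. Filled circles are above the floor, open circles at or below it, and the bars give each group's mean and SD (n = 3). Lmo2 stays between 299.6 and 717.8 in intensity on all 6 arrays, while Gata2 and Msi2 ILMN_1234842 are at the floor on WT 3 and above it on every other array.

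The TAL1 complex was represented by Lmo2, Gata2 and Tal1. Lmo2 (probe ILMN_2767605) was the only member above the floor on all 6 arrays. Its intensity was 368.4, 717.8 and 299.6 in WT replicates 1 to 3 and 398.3, 372.5 and 634.9 in Klf4-deficient replicates 1 to 3. The highest and the lowest Lmo2 values were both WT, so the Klf4-deficient values lay inside the WT range. The means were 8.75 ± 0.66 in WT and 8.83 ± 0.42 in Klf4-deficient arrays (log2, SD, n = 3), a difference of 0.08 ± 0.42 (SE; limma adjusted p = 0.93). Its 95% confidence interval, -0.99 to 1.15, ran from 0.505-fold to 2.22-fold, so changes within those limits remained compatible with the 3 arrays per group. The sign turned to -0.03 without WT replicate 1, -0.18 without WT replicate 3 and -0.16 without Klf4-deficient replicate 3.

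Gata2 (ILMN_2612283), needed for stem cell survival and also a regulator of mast cells, was bright on every array but 1. It read 698.9, 534.7 and -1.9 in WT, against 601.6, 415.3 and 346.2 in the Klf4-deficient arrays. WT replicate 3 held the background value, and the other 2 WT arrays lay at 534.7 or more, with 1 Klf4-deficient array between them. Over all arrays the difference was 0.95 ± 1.27 (log2, SE, n = 3 each; limma, adjusted p = 0.73), with an interval from -2.27 to 4.18. Without WT replicate 3 it was -0.47 ± 0.31 (n = 2 WT and 3 Klf4-deficient; limma adjusted p = 0.84), a 1.38-fold lower level in Klf4-deficient arrays with an interval from -1.40 to 0.46. The larger Gata2 difference and its sign thus rested on 1 array, on which 44.3% of the probes above 100 elsewhere were at the floor. Beside these values, the intensities of the 16 other mast cell and basophil probes, summed after setting negative values to 0, were 11390 and 6297 in WT replicates 1 and 2, 12510 in WT replicate 3 and 6993 to 10340 in Klf4-deficient arrays. WT replicate 3 thus had the highest mast cell sum and no Gata2 above background. Of that sum, 8245.9 came from 1 probe of the mast cell gene Hdc, ILMN_2965903. This probe read 5803.2 and 1739.3 in WT replicates 1 and 2 and 2834.6 to 5334.6 in Klf4-deficient arrays. The other Hdc probe read 2.9 in WT replicate 3. With 7 of the 16 probes above the floor, WT replicate 3 had the fewest of any array. The part of mast cell RNA in the Gata2 values was not tested.

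Tal1 (ILMN_2839788) was near background, with 11.2, -3.8 and 13.9 in WT, against 23.9, -2.4 and 55.6 in the Klf4-deficient arrays. Only Klf4-deficient replicate 3 exceeded the floor. Against a WT group wholly at the floor the floored values were 1.20-fold higher (0.27 ± 0.28 log2, SE, limma adjusted p = 0.71), from 1 of 3 arrays. The difference was 0 without that array and 0 with a floor of 64, so the fold is no bound.

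The RUNX and ETS factors were weakly measured apart from Fli1. Fli1 (ILMN_2621086), an ETS factor of stem cells, megakaryocytes and endothelium, read 224.1, 36.2 and -6.7 in WT, against 24.1, 84.6 and 257.7 in the Klf4-deficient arrays. Each group held a high, an intermediate and a background value, and the groups overlapped over nearly their whole range. The difference was 0.48 ± 1.11 (log2, SE, n = 3 each; limma, adjusted p = 0.84), with an interval from -2.34 to 3.29. It was -0.02 ± 1.39 without WT replicate 3 and 1.38 without WT replicate 1, and dropping Klf4-deficient replicate 3 gave -0.29.

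Both Erg probes lay at or below 13.5 on every array and gave no test. Probe ILMN_1253014 read 2.3, -0.1 and 6.9 in WT, against -2.1, -12.8 and -5 in the Klf4-deficient arrays, and ILMN_1260248 read -10.5, 13.5 and -4.9 against -0.7, -2.7 and 7.2. Erg transcript was therefore not detectable at this signal, which does not show that it was absent. Of the 2 Runx1 probes, ILMN_2589107 stayed below the floor with 26.4 as its highest value, in WT replicate 3, and its other 5 values ran from -5.4 to 8.4. The other, ILMN_2619773, read 14, 74.3 and 9.9 in WT, against 15.2, 14.7 and 2.6 in the Klf4-deficient arrays. WT replicate 2 alone was above the floor, and the floored values were 1.32-fold lower without Klf4 (-0.41 ± 0.38 log2, SE, limma adjusted p = 0.71). The difference was 0 without that array and -0.61 without WT replicate 3. With a floor of 64 it was -0.07, so the fold is no bound.

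Endothelial cells express several of the same factors (Tal1, Lmo2, Gata2, Erg and Fli1), and their markers were compared beside them. Of 29 probes for 14 endothelial and stromal genes, 3 to 8 were above the floor on the WT arrays, with the 8 in WT replicate 3. On the Klf4-deficient arrays it was 0 to 3. Their intensities, summed after setting negative values to 0, were 369.7 to 1044 in WT, highest in replicate 3, and 180.3 to 244.2 in Klf4-deficient arrays. These sums did not overlap, but they include values below the floor. The groups overlapped on each of the 13 tested probes, and failed to overlap on 3.09% of all tested probes. Of the 13 tested probes, 12 were lower and 1 higher in Klf4-deficient arrays, with a median of -0.44, and 0 were called. Without WT replicate 3 it was 5 lower, 2 higher and 6 with no difference, with a median of 0. Most of the 13 exceeded the floor on a single WT array, which fixes their sign, so these counts support no direction. The part of such RNA in the ETS and TAL1 complex values was not tested.

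Among the homeodomain factors, Hoxa7 was above the floor on 5 arrays and had the largest standard error of the tested member probes. Its probe ILMN_2621038 read 19.1, 191.6 and 1905.2 in WT, against 731.1, 323.3 and 110.7 in the Klf4-deficient arrays. The 3 WT arrays spanned background to 1905.2, and all Klf4-deficient arrays fell within that span. The SD was 2.95 in WT and 1.37 in Klf4-deficient arrays (log2, n = 3), and the difference was 0.39 ± 1.65 (SE; limma adjusted p = 0.91), with an interval from -3.80 to 4.58. Leaving out single arrays moved it from -1.03 without WT replicate 1 to 1.92 ± 1.31 without WT replicate 3 (limma adjusted p = 0.84). Dropping Klf4-deficient replicate 1 gave -0.26. Neither a higher nor a lower Hoxa7 level could be told from the spread between arrays.

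The 3 Hoxa9 probes, each designed on a RefSeq transcript, gave different patterns over the arrays. Probe ILMN_1258462 read 72.4, -2 and -7.2 in WT, against -0.2, 25.7 and 1.7 in the Klf4-deficient arrays, above the floor in WT replicate 1 only. Probe ILMN_2645155 read 134, 3.6 and 3.6 in WT, against 14.1, 39 and 4.7 in the Klf4-deficient arrays, highest in the same WT array. In Klf4-deficient replicate 2, ILMN_2645155 exceeded the floor while ILMN_1258462, at 25.7, did not. The last, ILMN_2772762, read 1.3, -5.9 and -18.7 in WT, against -21.5, -13.1 and 127 in the Klf4-deficient arrays, above the floor in Klf4-deficient replicate 3 alone, where the others were at 1.7 and 4.7. The differences were -0.39 ± 0.37, -0.59 ± 0.63 and 0.66 ± 0.60 (log2, SE, n = 3 each; limma, adjusted p = 0.71 each). The first was 0 and the second 0.10 without WT replicate 1, and the last was 0 without Klf4-deficient replicate 3. Leaving out WT replicate 3 gave -0.59, -0.94 and 0.66 in the same order.

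Meis1, the HOXA9 cofactor, was above the floor in 2 of its 18 values. On probe ILMN_1218266 Klf4-deficient replicate 3 read 104.8 and the other 5 arrays -8 to 19.9. Its floored values were 1.49-fold higher without Klf4 from 1 of 3 arrays (0.57 ± 0.52 log2, SE, limma adjusted p = 0.71). On probe ILMN_1218217 WT replicate 2 read 37.5 and the other arrays -9 to -4.1, 1.05-fold lower without Klf4 once floored (-0.08 ± 0.16, limma adjusted p = 0.82). With a floor of 64 these differences were 0.24 and 0, so neither fold is a bound. The last Meis1 probe, ILMN_1248401, stayed at or below 14.6 on all arrays. Klf4-deficient replicate 3 was thus the array with signal for Meis1 (ILMN_1218266), Hoxa9 (ILMN_2772762) and Tal1, each at background on the other arrays. That array also held the highest Fli1 value.

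**Figure D3:**
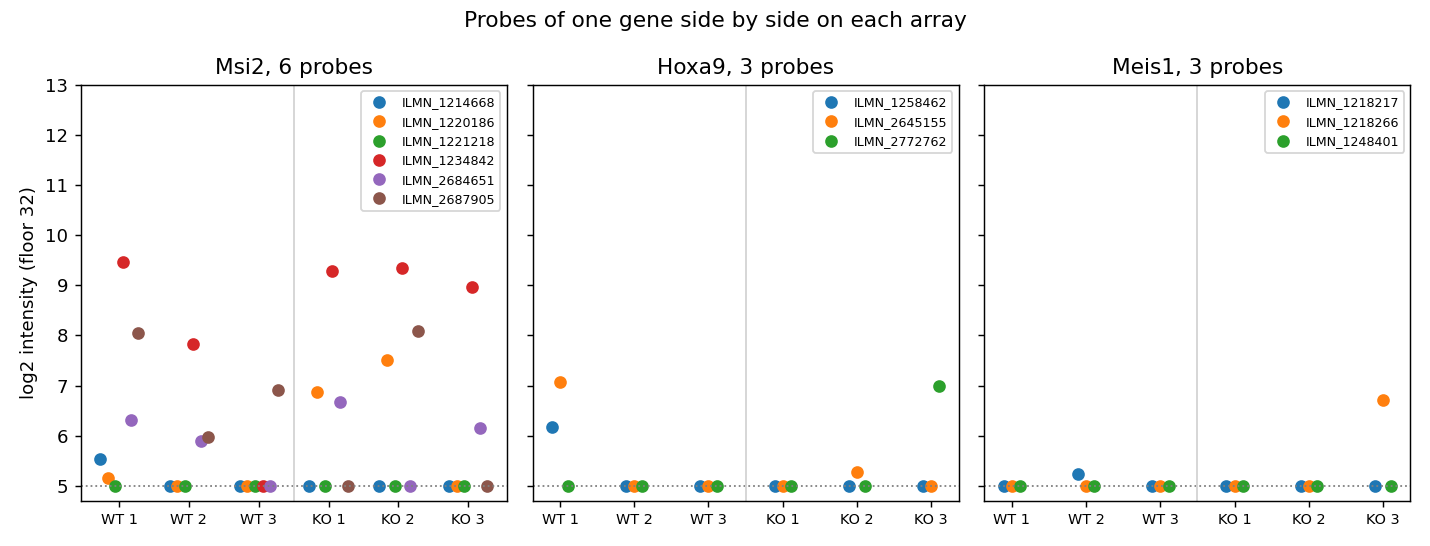
Log2 intensity with a floor of 32 (y axis, dotted line) on each array (x axis; KO is Klf4-deficient), with the probes of 1 gene as colours in each panel. For Hoxa9, the probe above the floor in KO 3 (127) is not among those above it in WT 1 (72.4 and 134). Msi2 ILMN_1234842 is the 1 Msi2 probe above the floor on all KO arrays.

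Msi2 had the most probes, and 17 of its 36 values exceeded the floor. Probe ILMN_1234842, designed on a cDNA record outside RefSeq's transcripts, was above the floor on 5 arrays, with 702.7, 226.6 and -8.8 in WT, against 625.3, 650 and 501.8 in the Klf4-deficient arrays. All Klf4-deficient arrays lay above WT replicate 2 and below WT replicate 1, and WT replicate 3 was again at background, as for Gata2. The difference of 1.77 ± 1.15 (log2, SE, n = 3 each; limma, adjusted p = 0.71; 3.42-fold) was the largest of any member probe. It became 0.56 ± 0.59 without WT replicate 3 (limma adjusted p = 0.84), with an interval from -1.18 to 2.30, and 2.79 without WT replicate 1.

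Probe ILMN_1220186 had the smallest unadjusted p of the members, 0.089. It read 35.5, -1.6 and -1.3 in WT, against 116.9, 181.4 and 29.5 in the Klf4-deficient arrays. Klf4-deficient replicates 1 and 2 were above all WT arrays, and replicate 3 was below WT replicate 1 and under the floor. The difference was 1.41 ± 0.68 (log2, SE, n = 3 per group; 2.65-fold; limma adjusted p = 0.71), and 1.38 ± 0.91 without WT replicate 3. Dropping Klf4-deficient replicate 2 gave 0.88, and dropping Klf4-deficient replicate 3 gave 2.14. Its limma adjusted p ran from 0.383 to 0.997 over the alternatives, lowest without Klf4-deficient replicate 3.

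The remaining Msi2 probes were mixed in sign. Probe ILMN_2687905 read 266.3, 63.3 and 120.4 in WT, all above the floor, and 17.9, 270.9 and 21.2 in Klf4-deficient arrays, where replicate 2 alone exceeded it. Its difference was -0.96 ± 1.05, and -1.98 without Klf4-deficient replicate 2. Probe ILMN_2684651 read 80, 59.5 and 8.4 in WT, against 101.4, 9 and 71.1 in the Klf4-deficient arrays, 2 arrays of each group above the floor, with a difference of 0.20 ± 0.57 that became -0.17 without WT replicate 3. Probe ILMN_1214668 was above the floor in WT replicate 1 alone (46.4, against -1.2 to 18.7 elsewhere), and ILMN_1221218 stayed at or below 1.1 on all arrays. Of the 5 tested Msi2 probes 3 had a positive and 2 a negative difference, and without WT replicate 3 it was 2 positive and 3 negative. No single direction described Msi2 in these arrays.

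**Figure D4:**
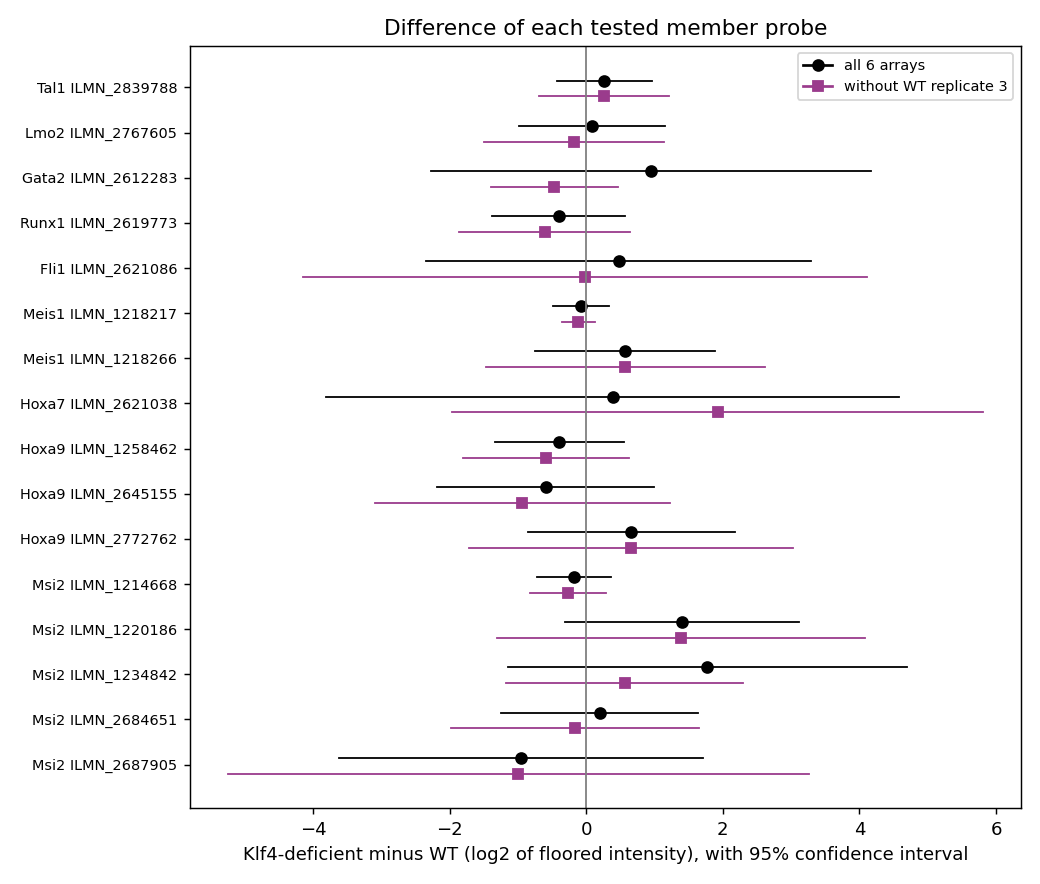
Difference between Klf4-deficient and WT arrays for the 16 tested member probes (x axis, log2, with 95% confidence interval), with all 6 arrays (black circles) and without WT replicate 3 (purple squares). Every interval spans 0, and Gata2 moves from 0.95 to -0.47.

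The partners of these factors were compared next, with member genes left out of each list. Of 25 genes of the heptad complex and its core binding partners, 23 had probes and 20 were tested, on 33 probes. None was called, 13 probes had a higher and 20 a lower mean in the Klf4-deficient arrays, and their median was -0.16 beside -0.05 over all tested probes. Without WT replicate 3 it was 16 higher, 13 lower and 4 with no difference, with a median of 0. Groups did not overlap on 1 of the 33 probes, beside 3.09% of all tested probes. That probe was of Lyl1, the helix-loop-helix paralogue of Tal1. Its probe ILMN_2612255 read 87.4, 47.4 and 327.8 in WT, against 26.4, 17.3 and 19.8 in the Klf4-deficient arrays, highest in WT replicate 3 and at background in every Klf4-deficient array. The floored Lyl1 values were 3.46-fold lower without Klf4 (-1.79 ± 0.74 log2, SE, n = 3 per group), and were not called (limma adjusted p = 0.71). The difference stood at -1.01 without WT replicate 3.

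The partners above the floor on all 6 arrays, singled out after their values were seen, were Cbfb and Ldb1. Cbfb, the subunit that stabilises RUNX1 on DNA, read 464.4, 219.5 and 554.5 in WT, against 81.4, 476.3 and 359.3 in the Klf4-deficient arrays on ILMN_2837855. Its other bright probe, ILMN_2757743, read 307.8, 121 and 419.9 against 44.5, 342.8 and 166.9. Both Cbfb probes were lowest in Klf4-deficient replicate 1 and highest in WT replicate 3, and their differences were -0.67 ± 0.79 and -0.87 ± 0.90 (log2, SE), or -0.41 and -0.50 without WT replicate 3. The last tested Cbfb probe, ILMN_2671644, was above the floor in WT replicate 2 alone, at 50. Ldb1 (ILMN_2601907), the adaptor through which LMO2 joins enhancer complexes, read 148.3, 131 and 50 in WT, against 199.7, 276.2 and 101.2 in the Klf4-deficient arrays. Its difference was 0.84 ± 0.59 (limma adjusted p = 0.71) and 0.35 without WT replicate 3. Cbfb and Ldb1 thus overlapped between groups and differed in sign.

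In the list of further HOX genes, TALE cofactors and MLL complex genes, 29 of 31 genes had probes, and 43 of their 63 probes were below the floor on every array. Of the 20 tested probes, 9 were higher and 11 lower without Klf4, with a median of -0.05 that became 0 without WT replicate 3, and 0 called. The groups overlapped on all 20. Psip1, which encodes LEDGF, the chromatin tether of the MLL complex, was the 1 gene above the floor on all arrays (chosen after its values were seen). Its probe ILMN_2615678 read 571.2, 38.4 and 403.6 in WT, against 413.6, 228.9 and 52.3 in the Klf4-deficient arrays, a difference of -0.28 ± 1.33 (log2, SE) that turned to 0.20 without WT replicate 3. The other tested Psip1 probes had a positive difference, 1.45 for ILMN_2617478 and 0.64 for ILMN_2796429, so the probes of Psip1 disagreed in sign.

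Genes known as targets of these factors were counted in 2 lists, which share Bcl2, Cd34, Flt3 and Myb, so their counts are not separate. Of 29 tested probes of heptad targets 9 were higher and 20 lower, with a median of -0.07 and 0 called, and without WT replicate 3 it was 10 higher, 17 lower and 2 with no difference. Of 32 tested probes of HOXA9 and MEIS1 targets, 16 were higher and 16 lower, with a median of 0.002 and 0 called, and without WT replicate 3 it was 11 higher, 19 lower and 2 with no difference, with a median of -0.10. Groups did not overlap on 1 of the 29 heptad target probes, beside 3.09% of all tested probes. For the HOXA9 and MEIS1 targets it was 2 of the 32. Angpt1, the ligand of the TIE2 receptor of stem cells and endothelium, was the heptad target whose groups did not overlap, on probe ILMN_2606451. That probe read 38.3, 19.5 and 13.2 in WT, against 63.4, 56.8 and 81.6 in the Klf4-deficient arrays, 1.96-fold higher (0.97 ± 0.21 log2, SE, n = 3 each; limma, adjusted p = 0.71, not called). The other tested Angpt1 probe, ILMN_1226520, read 58.7, 93.4 and -2.9 against -0.8, 96.1 and -7.4. Its groups overlapped and its difference had the opposite sign, at -0.28, or -0.68 without WT replicate 3. In the other list Eya1, a transcriptional coactivator and phosphatase, had on ILMN_2430513 all WT arrays below 0 and 73.8, 42.6 and 182.2 in Klf4-deficient arrays. The floored Eya1 values were 2.60-fold higher (1.38 ± 0.55, limma adjusted p = 0.71, not called). The other 3 Eya1 probes were below the floor on every array, with 14.9 as their highest value. Hif1a, the hypoxia-inducible factor, read 17.2, -1.3 and 11.8 against 39.4, 38.6 and 144.8 on probe ILMN_2852034. The floored Hif1a values were 1.89-fold higher (0.92 ± 0.57, limma adjusted p = 0.71, not called), with 39.4 and 38.6 close to the floor. The groups overlapped on the other tested Hif1a probe, ILMN_2511256, with a difference of 0.29, or -0.01 without WT replicate 3. Myb, a target in both lists and the 1 gene of either above the floor on all arrays (a choice made after its values were seen), read 643.3, 516.8 and 100.4 in WT, against 384.8, 462 and 378.6 in the Klf4-deficient arrays on ILMN_2752817. As with Gata2, Myb was lowest in WT replicate 3, and its difference of 0.34 ± 0.76 turned to -0.50 without that array. The other tested Myb probes gave 0.66 (ILMN_2683910) and -0.07 (ILMN_1219713), and -0.94 and -0.24 without WT replicate 3.

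Of 26 other stem cell transcription factors, 14 were tested on 21 probes, of which 11 were higher and 10 lower with a median of 0.18 and 0 called, and without WT replicate 3 it was 8 higher, 10 lower and 3 with no difference, with a median of 0. Groups did not overlap on 1 of the 21 probes, beside 3.09% of all tested probes. It was the probe ILMN_2662926 of Egr1, an immediate early factor that restrains stem cell division. Egr1 read 363.4, 169.3 and 276.2 in WT against 728.9, 760.8 and 818.6 in Klf4-deficient arrays. That was 2.99-fold (1.58 ± 0.32 log2, SE, n = 3 per group), with a limma adjusted p of 0.71, so it was not called. Of 11 genes of the Musashi family and the Numb and Notch pathway, 6 were tested on 14 probes, 9 higher and 5 lower, with a median of 0.17 that became 0.09 without WT replicate 3, and 0 called. Groups overlapped on all 14. Syncrip, an RNA-binding protein that works with MSI2, read 157, 96.6 and 49.8 in WT, against 61.8, 116.8 and 72.4 in the Klf4-deficient arrays on ILMN_2595017, the 1 probe of this list above the floor on all arrays (singled out after its values were seen). Its difference was -0.18 ± 0.51, and -0.61 without WT replicate 3. The other tested Syncrip probes went the other way, at 0.35 (ILMN_1258420), 0.79 (ILMN_2634248) and 0.61 (ILMN_2709935), and the last of these turned to -0.80 without WT replicate 3.

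Erythroid and megakaryocytic cells also use TAL1 and LMO2, and megakaryocytic cells FLI1, and their markers were set beside these factors. Of 15 tested erythroid probes, from 10 genes, 13 were higher and 2 lower without Klf4, and 0 were called. Over all 18270 tested probes 8374 were higher. The erythroid median was 1.02 beside -0.05 over all tested probes, and 0.50 beside 0 without WT replicate 3. Several of these probes belong to Hbb-bt, so the counts are not of separate genes. The groups did not overlap on 4 of the 15, each higher without Klf4, beside 3.09% of all tested probes. For Car1 the highest WT value was 738.3 and the lowest Klf4-deficient value 793.8. For Hbb-bt ILMN_1236718 these were 2870.3 and 2971.1, and the groups overlapped on the other Hbb-bt probes. Alas2, the first enzyme of haem synthesis in red cell precursors, read 8.8, 26.1 and -15 in WT, against 172, 114.1 and 160.7 in the Klf4-deficient arrays on ILMN_2675874. All WT arrays were at background, and the floored Alas2 values were 4.58-fold higher (2.20 ± 0.22 log2, SE, n = 3 each, limma adjusted p = 0.59, not called). Tfrc, the transferrin receptor, read 48.5, 42.6 and 3.8 against 73.6, 249.6 and 88.7 on ILMN_2860804, a difference of 1.54 ± 0.53 (limma adjusted p = 0.71). On its other probe, ILMN_2619848, the Tfrc groups overlapped, with a difference of 1.03, or 2.11 without WT replicate 3. The summed erythroid intensity was 6137, 13140 and 5084 in WT and 12820 to 14440 in Klf4-deficient arrays, so WT replicate 2 lay within the Klf4-deficient range. On every array but WT replicate 3 the largest term of that sum was the globin probe Hbb-bt ILMN_1236718. It read 906, 2870.3 and 7.6 in WT and 2971.1 to 3332.5 in Klf4-deficient arrays. Of 6 tested megakaryocyte probes, 3 were higher and 3 lower, with a median of -0.21 that turned to 0.22 without WT replicate 3. The part of erythroid or megakaryocytic RNA in the Lmo2, Tal1 and Fli1 values was not tested.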

How the data were processed

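The deposited values are linear probe intensities from 6 arrays. Per the labels' protocols a service laboratory prepared, scanned and read out the arrays, and the submitters' processing notes name BeadStudio. How background and scale were set is not given in the sources used here. Deposited intensities ran from -31 to 37007.2 and were nearly equal in distribution across arrays, so they had been background-subtracted and scaled, and no scaling was added. The platform annotation named the probes, and symbols of list genes were updated by Entrez number. Of the 45281 probes, 34885 had 1 symbol, 18 several and 10378 were not listed there. Neither probe sequences nor positions were used here.

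Intensities were floored at 32, and log2 values were fitted per probe in R 4.3.3 by lmFit and eBayes of limma 3.58.1. P-values were adjusted by Benjamini-Hochberg over the 18270 probes above 32 on at least 1 array. A fold against a group wholly at the floor is that of the floored values. It depends on the floor chosen and is no bound. The fit was run on simulated data, with changes in bright probes only and the spread capped below that of most bright probes. That run does not show how well changes in the members would be found. The members, gene lists and tests were chosen with earlier results of these data known. Every member probe is named. Of each list described, the rule named up to 2 genes with the smallest p whose groups did not overlap. Groups and replicate numbers came from the titles. Alternatives covered the floor, an offset, the filter, quantile normalization, 1 value per gene, eBayes options, array weights, a replicate block and leaving out each array. The number of arrays limits the precision.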

Additional observations from a re-analysis of the deposited data

How the results depend on the processing

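Over 18 alternative settings, 0 member probes were called in any of them, and the median difference of the tested member probes lay between -0.14 and 0.43 (log2), at -0.13 with array weights and at -0.14 to 0.36 without single arrays. Across all probes, 2 were called with a floor of 64, 1 with all probes and no filter, and 0 to 20 when single arrays were left out. Of the 16 tested member probes, 10 kept their sign or went to 0 in each of the 15 to 17 alternatives that gave the probe a value, and 6 changed it. With array weights the sign turned for Lmo2 (-0.12), Gata2 (-0.37), Fli1 (-0.14) and Msi2 ILMN_2684651 (-0.22); the cause was not tested. Leaving out single arrays gave -0.18 to 0.45 for Lmo2, -0.47 to 1.76 for Gata2, -0.29 to 1.38 for Fli1, -1.03 to 1.92 for Hoxa7, -0.94 to 0.10 for Hoxa9 ILMN_2645155 and -0.17 to 0.67 for Msi2 ILMN_2684651, where fewer samples are the change. With the replicate number as a block, 0 member probes and 0 probes in all were called, and the median member difference stayed 0.23. Same-numbered samples did not deviate together beyond r = 0.03 to 0.04 across probes, so the numbers were not taken as pairing, although each sample correlated best with its own number, a hint from the data and not the design. Values near the floor carry no order, which limits Tal1, Runx1, Erg, Meis1 and Hoxa9.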
